A study of Mus musculus with 2 samples.

Results

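The genes described are 10 that encode proteins of the desmosome, taken from the 43346 Ensembl genes in each of 2 RNA sequencing libraries of mouse embryonic stomach. They were chosen by gene family: the desmogleins Dsg2 and Dsg3, the desmocollins Dsc2 and Dsc3, plakoglobin (Jup), the plakophilins Pkp1, Pkp2 and Pkp3, desmoplakin (Dsp) and Perp. All 10 were found by symbol in both gene tables, all 10 passed the filter on low counts, and all 10 reached 1 TPM in both libraries (TPM corrects for transcript length and has the same total in each library). Both libraries belong to 1 group: total RNA of healthy stomach of strain B6NCrl at embryonic day 16.5, with 10 ng of RNA entering each library. Each library is a pool of male and female embryos, 41 of them for replicate 2, with no number given for replicate 1. No treatment, genotype or time was compared, so the data give the level of each gene and how far the pools differed.

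Desmosomes are spots of strong adhesion between neighbouring cells, known above all from stratified epithelia, simple epithelia and heart muscle. In each spot the cadherins (desmogleins and desmocollins) of both cells bind each other in the gap. Inside the cell their tails hold the armadillo proteins plakoglobin and plakophilins, and desmoplakin ties these to the keratin filaments. The rodent stomach is lined partly by a stratified squamous epithelium, in the forestomach, and partly by a simple glandular epithelium. Dsg3, Dsc3 and Pkp1 are textbook genes of stratified epithelium, and the other members were grouped here as genes of a wider tissue range.

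Replicate 1 held 43195887 expected counts on genes and replicate 2 held 25151165. The members drew from 945 (Pkp2) to 21407 (Perp) expected counts in replicate 1 and from 488 to 17078 in replicate 2. Markers of the stomach linings were present: 10 of 10 squamous and 7 of 7 gastric surface mucous genes reached 1 TPM in both libraries, and so did 6 of 6 acinar pancreas genes and 6 of 6 liver genes. Skeletal muscle genes differed most between the pools, with a summed level of 2477 TPM in replicate 1 and 202 in replicate 2 over 10 genes. In bulk tissue, fewer cells of a type and less RNA per cell cannot be told apart.

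The 10 genes spanned a wide range of levels. Perp was highest, with 387 TPM in replicate 1 and 552 in replicate 2, and supplied 43.0% ± 0.872 (SD, n = 2) of the members' summed TPM. Jup followed with 21.7% ± 0.112 and Dsc2 with 11.7% ± 0.0358, whereas Dsc3 supplied 0.824% ± 0.0384. The median member stood at 46.4 ± 10.3 TPM, against a median of 15.4 TPM over the 15372 genes detected in both libraries. Only Pkp2 and Dsc3 lay below that median of all detected genes. The order from the top was Perp, Jup, Dsc2, Pkp3, Pkp1, Dsg3, Dsp and Dsg2 in both libraries, and Pkp2 and Dsc3 took the last places in either order. Neighbours in this order differed by more than the SD of their log2 difference, except Pkp2 and Dsc3, whose difference was 0.60 in replicate 1 and -0.09 in replicate 2 (mean 0.25 ± 0.49). The closest pair that kept its order was Pkp1 and Dsg3, 0.11 ± 0.04 apart on the log2(TPM + 0.1) scale. These differences were not tested, because signs flipped over 2 libraries give an exact two-sided p of at least 0.5.

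**Figure D1:**
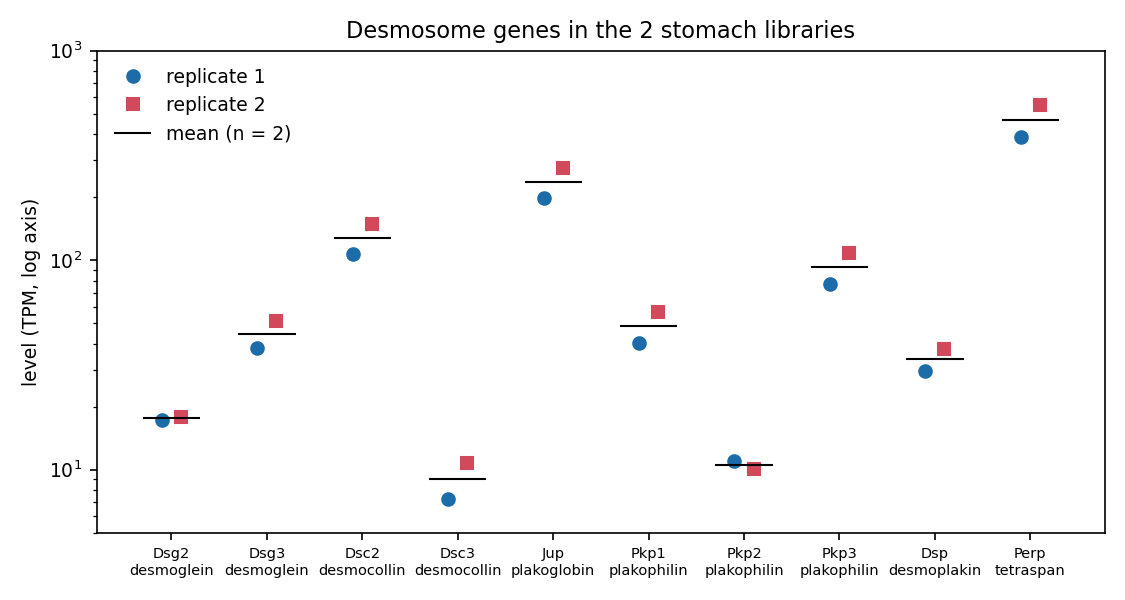
Level of each desmosome gene in TPM on a log axis, by role, with replicate 1 as circles, replicate 2 as squares and the mean of the 2 libraries as a line. Perp stands highest at 387 and 552 TPM, Dsc3 and Pkp2 lowest, and for Dsg2 and Pkp2 the symbols lie close together while replicate 2 is the higher one for the other 8 genes.

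Among the desmogleins, Dsg3, the main desmoglein of stratified mucosa, stood above Dsg2, the desmoglein of simple epithelia and heart. Dsg3 (ENSMUSG00000056632) had 38.0 TPM in replicate 1 and 51.1 in replicate 2, a mean of 44.5 ± 9.24. Dsg2 (ENSMUSG00000044393) had 17.4 and 17.8 TPM, a mean of 17.6 ± 0.311. The log2 difference of Dsg3 over Dsg2 was 1.13 in replicate 1 and 1.52 in replicate 2, a mean of 1.32 ± 0.28 or 2.50-fold. The only Dsg3 transcript that was quantified is 4108 bases long, against 6212 in the annotation GENCODE M21. Dsg2-201, the leading Dsg2 transcript, is 5766 bases long in both. The bearing of this on the difference was not tested. Of the summed desmoglein TPM, Dsg3 made up 68.4% ± 2.61 and Dsg2 27.4% ± 4.19. Nearly all of the rest came from Dsg1b, at 3.50% ± 1.30.

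The desmocollins showed the reverse order. Dsc2 (ENSMUSG00000024331), the desmocollin found in simple and stratified epithelia, had 107.5 TPM in replicate 1 and 148 in replicate 2, a mean of 128 ± 28.9. Dsc3 (ENSMUSG00000059898), its relative of stratified epithelium, had 7.28 and 10.8 TPM, a mean of 9.03 ± 2.47. Dsc3 lay below Dsc2 by -3.82 ± 0.07 on the log2 scale, a 14.1-fold gap that was nearly equal in both libraries. Dsc2 made up 93.4% ± 0.312 of the desmocollin TPM. So the stratified member led among the desmogleins and the widely used member among the desmocollins, in both libraries. Across the classes, Dsc2 exceeded Dsg2 by 2.84 ± 0.30 log2 units, and Dsg3 exceeded Dsc3 by 2.30 ± 0.10. Summed desmocollins stood at 137 ± 31.4 TPM and summed desmogleins at 64.9 ± 11.0.

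**Figure D2:**
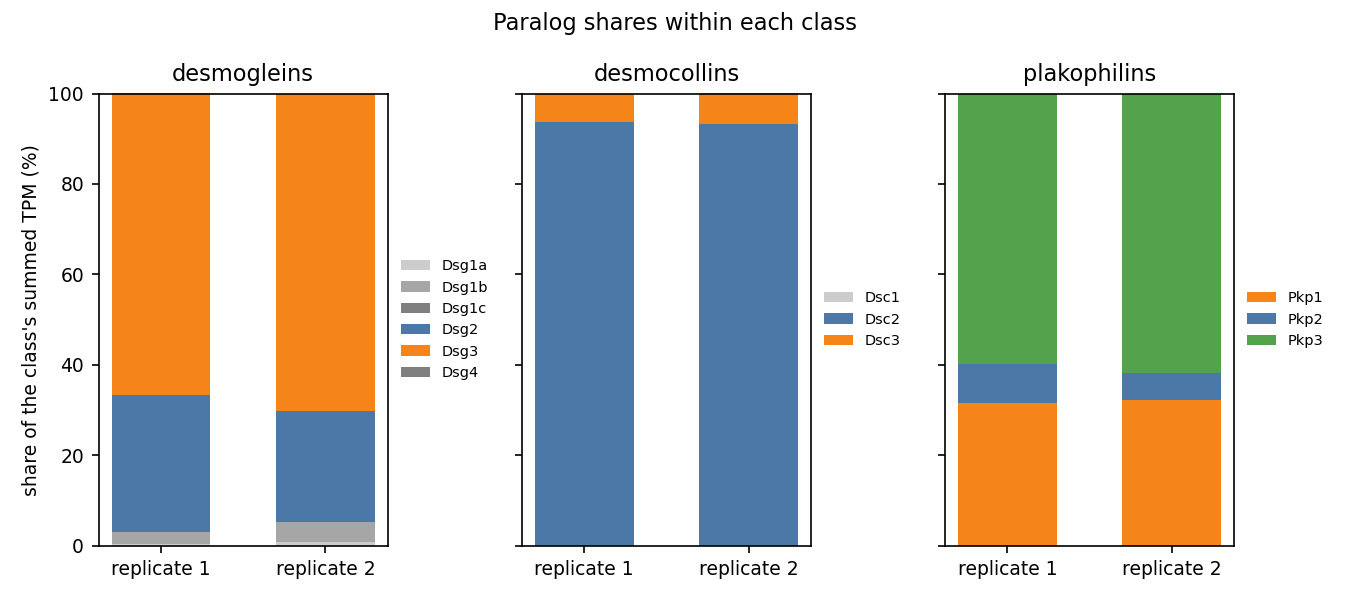
Share of each gene in the summed TPM of its class, in percent, for desmogleins, desmocollins and plakophilins, with 1 bar per library. Dsg3 takes most of the desmogleins, Dsc2 nearly all of the desmocollins and Pkp3 most of the plakophilins, with similar shares in both libraries.

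The 9 desmosomal cadherin genes lie in 1 cluster on chromosome 18 (GRCm38, 19960930 to 20604521, GENCODE M21), with no other protein-coding gene between Dsc3 at one end and Dsg2 at the other. Direct neighbours in the cluster differed widely in level. Dsc3 (19960930 to 20002351) and Dsc2 (20030633 to 20059554) on the minus strand were both detected, whereas Dsc1 beside them drew 0 and 1 expected counts. Of the desmogleins on the plus strand, Dsg1c drew 0 and 1.13 counts and Dsg4 drew 4 and 0. A count of 0 allows up to 3 counts, so these 3 genes were at or close to the floor of this depth. Dsg1a stood at 0.23 and 0.61 TPM and Dsg1b at 1.47 and 3.21, and the split between these near-identical copies is uncertain. Dsg3 (20510274 to 20547459) and Dsg2 (20558074 to 20604521) closed the cluster. The next gene, Ttr, which encodes a plasma protein made by liver, stood at 77.7 TPM in both libraries.

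**Figure D3:**
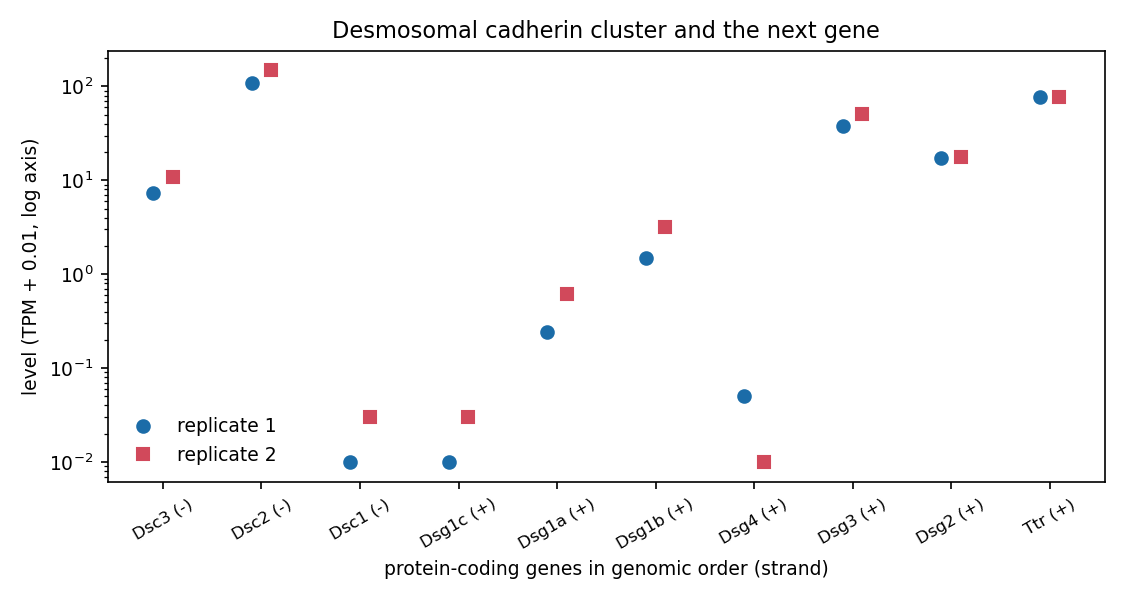
Level of the 9 desmosomal cadherin genes and of Ttr in their order along the chromosome, as TPM + 0.01 on a log axis, with replicate 1 as circles and replicate 2 as squares. Dsc1, Dsg1c and Dsg4 lie at the bottom in both libraries, between Dsc2 on one side and Dsg3 on the other.

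Dsc2 was the member whose reads were most evenly split between full-length transcripts. Dsc2-202, which encodes 902 residues, carried 56.3% of the gene's TPM in replicate 1 and 51.4% in replicate 2 (53.8% ± 3.50). Dsc2-201, which encodes 848 residues, carried 40.1% and 45.4% (42.8% ± 3.80). It holds an exon of 46 bases that has no counterpart in Dsc2-202, and the protein annotated for it is shorter. These correspond to the long a form and the short b form known for desmocollins, which differ in the tail that faces the cytoplasm. The long form led in both libraries, but the gap between the forms was wider in replicate 1. Reads from the shared exons were divided between the forms by the authors' estimation, on which these shares and the gap rest.

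Plakoglobin, the armadillo protein that desmosomes share with adherens junctions, was the second most abundant member. Jup (ENSMUSG00000001552; chromosome 11, 100368958 to 100397763, minus strand) had 199 TPM in replicate 1 and 274 in replicate 2, a mean of 237 ± 53.0. Its level lay below that of its close relative Ctnnb1 (beta-catenin), at 326 and 357 TPM, the log2 difference being -0.54 ± 0.23. It exceeded Dsp by 2.80 ± 0.07 log2 units. Jup-201, which encodes 745 residues, carried 93.3% ± 0.203 of the gene's TPM. Next came Jup-209, a transcript of 684 bases not annotated as protein-coding, at 4.12% ± 0.453. Jup-202, which encodes the same number of residues as Jup-201, carried 0.381% ± 0.0491.

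In TPM, Pkp3 led the plakophilins, which bind desmoplakin and the cadherin tails. Pkp3 (ENSMUSG00000054065; chromosome 7, 141078218 to 141090510) had 76.6 TPM in replicate 1 and 108 in replicate 2, a mean of 92.3 ± 22.3. Pkp1 (ENSMUSG00000026413; chromosome 1, 135871395 to 135919207), the plakophilin of stratified epithelium, had 40.3 and 56.4 TPM, a mean of 48.4 ± 11.4. Pkp2 (ENSMUSG00000041957; chromosome 16, 16213318 to 16272712), used in simple epithelia and the heart, had 11.05 and 10.1 TPM, a mean of 10.6 ± 0.672. Their shares of the plakophilin TPM were 60.9% ± 1.45 for Pkp3, 31.9% ± 0.570 for Pkp1 and 7.21% ± 2.02 for Pkp2. Pkp1 exceeded Pkp2 by 2.16 ± 0.43 log2 units and Pkp3 exceeded Pkp2 by 3.09 ± 0.44, with wider gaps in replicate 2 for both. In expected counts, which are not corrected for length, the order turned, with 53.1% for Pkp1 and 39.4% for Pkp3. Restricted to transcripts that GENCODE M21 annotates as protein-coding, a choice made after the data were seen, Pkp3 stood at 56.2 ± 15.1 TPM, its share at 49.1% and that of Pkp1 at 42.2%. This restriction also drops a Pkp3 transcript whose coding status is not known here.

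Pkp3 had the most transcripts of the members. Of its 10 transcripts in the tables, Pkp3-201 carried 45.3% ± 0.248 of the TPM and Pkp3-202 10.5% ± 0.357. A transcript of 462 bases (ENSMUST00000160356), the one of unknown coding status because it is not in GENCODE M21, carried 29.4% in replicate 1 and 26.9% in replicate 2. Measured in expected counts, which are not corrected for length, that short transcript took 5.82% of the gene and Pkp3-201 took 70.8%. It drew 250.9 and 181 expected counts in the 2 libraries, against 2914 and 2317 for Pkp3-201. Pkp3-201 and Pkp3-202 differ at their first coding exon and encode 797 and 822 residues. Their coding starts are shown for this reason, read from GENCODE M21 on GRCm38 (plus strand of chromosome 7, from 141079870 for Pkp3-201 and from 141078324 for Pkp3-202). Small letters are each transcript's own coding bases, 36 and 111 of them, and capitals the first 21 bases of the exon sequence that both share.
Pkp3-201: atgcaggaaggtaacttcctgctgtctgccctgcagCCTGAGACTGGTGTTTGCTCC
Pkp3-202: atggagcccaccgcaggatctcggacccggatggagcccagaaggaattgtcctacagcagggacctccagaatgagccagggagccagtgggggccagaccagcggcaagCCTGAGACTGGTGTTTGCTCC

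For Pkp1 and Pkp2 1 transcript dominated. Pkp1-201 carried 97.7% ± 1.93 of the Pkp1 TPM and Pkp2-201 90.0% ± 2.18 of the Pkp2 TPM. Pkp2-202, annotated as a retained intron, carried 8.05% and 7.92% of Pkp2 in replicates 1 and 2. Over all members, the same transcript led in both libraries for 7 of the 7 genes with several transcripts in the tables. Dsg3, Dsc3 and Perp had 1 transcript each, which fixes the outcome.

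Desmoplakin, the plakin that anchors keratin filaments to the junction, stood seventh in level. Dsp (ENSMUSG00000054889; chromosome 13, 38151294 to 38198577, plus strand) had 29.45 TPM in replicate 1 and 37.8 in replicate 2, a mean of 33.6 ± 5.93. Its 2 main transcripts differ at exon 23 of 24, the exon for the rod of the protein. Dsp-202 ends that exon at 38191858 and Dsp-201 at 38193655, so that Dsp-202 leaves out 1797 bases, or 599 residues, and encodes 2284 residues against 2883. These correspond to 2 known forms of the protein, desmoplakin II with the short rod and desmoplakin I with the long rod. The short-rod transcript Dsp-202 carried 73.5% of the gene's TPM in replicate 1 and 71.9% in replicate 2 (72.7% ± 1.15). Dsp-201 carried 24.6% and 27.4% (26.0% ± 1.98), so the short form led by a similar margin in both libraries. Reads from the common exons were divided between the forms by the authors' estimation, on which these shares rest.

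The sequences that set the Dsp transcripts apart are given from GENCODE M21 (GRCm38, chromosome 13, plus strand), with 30 bases on each side. Capitals mark the first bases of exon 24, which starts at 38194696, and small letters are exon 23. At the place where Dsp-202 joins exon 24, Dsp-201 reads on in exon 23, beginning with the bases GT.
Dsp-202 junction: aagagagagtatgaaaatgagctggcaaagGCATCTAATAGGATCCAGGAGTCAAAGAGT
Dsp-201 at the same position: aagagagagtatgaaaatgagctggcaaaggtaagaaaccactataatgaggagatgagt
Dsp-201 junction: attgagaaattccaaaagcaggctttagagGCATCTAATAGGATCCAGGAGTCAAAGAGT

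**Figure D4:**
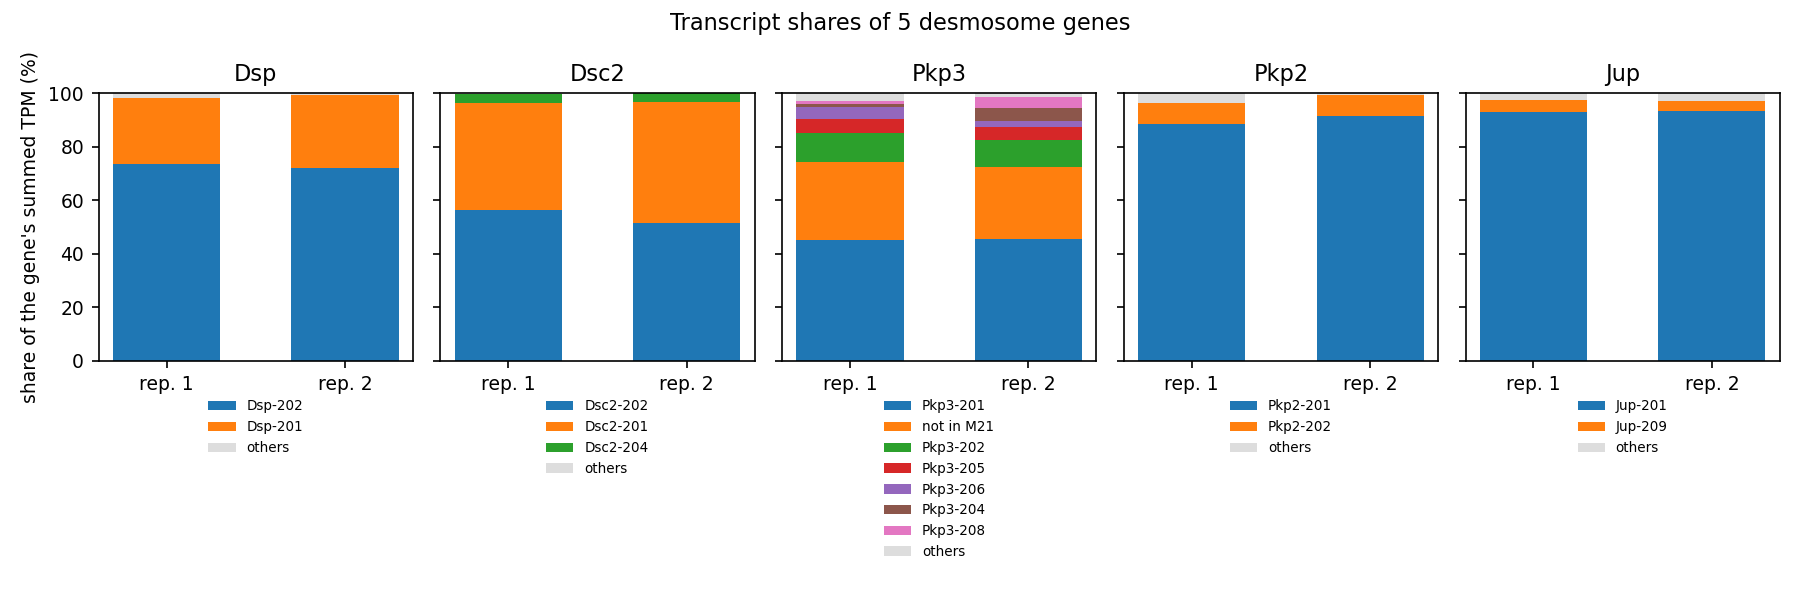
Share of each transcript in its gene's summed TPM, in percent, for Dsp, Dsc2, Pkp3, Pkp2 and Jup, with 1 bar per library, and transcripts under 2% grouped as others. Dsp-202 takes over 70% of Dsp in both libraries, Dsc2 is split between Dsc2-202 and Dsc2-201, and 1 transcript takes most of Pkp2 and Jup.

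Perp, a membrane-spanning protein of desmosomes that is known as a target of p53 and p63, had the highest level of all members. Perp (ENSMUSG00000019851; chromosome 10, 18845020 to 18857073, plus strand) had 387 TPM in replicate 1 and 552 in replicate 2, a mean of 469.6 ± 117. This placed it above 98.1% of the detected genes, where Jup stood above 95.9% and Dsc2 above 92.0%. The tables hold 1 transcript for Perp, which encodes 193 residues.

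The pools differed in 8 of the 10 genes, all lower in replicate 1. The log2 ratio of replicate 1 over replicate 2 was taken after TMM scaling of the library sizes. It was -0.53 for Dsc3, -0.48 for Perp, -0.47 for Pkp1 and -0.44 for Pkp3. For Dsc2 and for Jup it was -0.43, for Dsg3 -0.39 and for Dsp -0.35. These correspond to levels from 1.27-fold (Dsp) to 1.44-fold (Dsc3) higher in replicate 2. Dsg2 had a ratio of 0.00 with a 95% counting interval from -0.08 to 0.09, and Pkp2 a ratio of 0.15 with an interval from -0.01 to 0.31. The 8 lower genes lay in a band whose intervals ran from -0.65 at one end to -0.30 at the other, clear of both. The median of the 10 members was -0.43, against 0.00 over the 17763 genes tested. Over all genes tested, 49.6% had a ratio below 0. None of the 10 lay beyond 2-fold, where 3.58% of all genes did.

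An exact binomial test of each gene's counts, two-sided and adjusted by Benjamini-Hochberg over all 17763 genes, called the same 8 members lower in replicate 1 and 0 higher. Of all genes, 17.2% were called lower and 14.6% higher. These shares are over genes of all depths, and at high counts small ratios are called too, such as -0.07 for Ctnnb1. By size of the ratio, 5.87% of the genes tested lay below Dsc3, the lowest of the 8, and 9.77% below Dsp, the highest. The adjusted p of the exact binomial test was 1.37e-221 for Perp, 2.14e-38 for Dsp and 1.39e-15 for Dsc3, and it was 0.149 for Pkp2 and 1 for Dsg2. The test compares these 2 libraries and covers counting error only. Each side is 1 pool, so the spread between pools of this stage is not known from it. The intervals that the authors deposited with the posterior mean TPM gave the same division. Resting on the same reads, they are not separate evidence. They lay apart, with replicate 1 below, for 8 members and overlapped for Dsg2 and Pkp2. Over the detected genes, 15.0% had intervals apart with replicate 1 below and 7.83% with replicate 1 above. For Perp the posterior mean was 379.8 TPM (374.8 to 384.9) in replicate 1 and 534 (526 to 542) in replicate 2. For Dsg2 it was 17.2 (16.5 to 17.9) and 17.4 (16.5 to 18.4). No source used here gives the level of the interval, and 5 of the 20 member TPM values lay outside their own interval, which is built around the posterior mean.

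**Figure D5:**
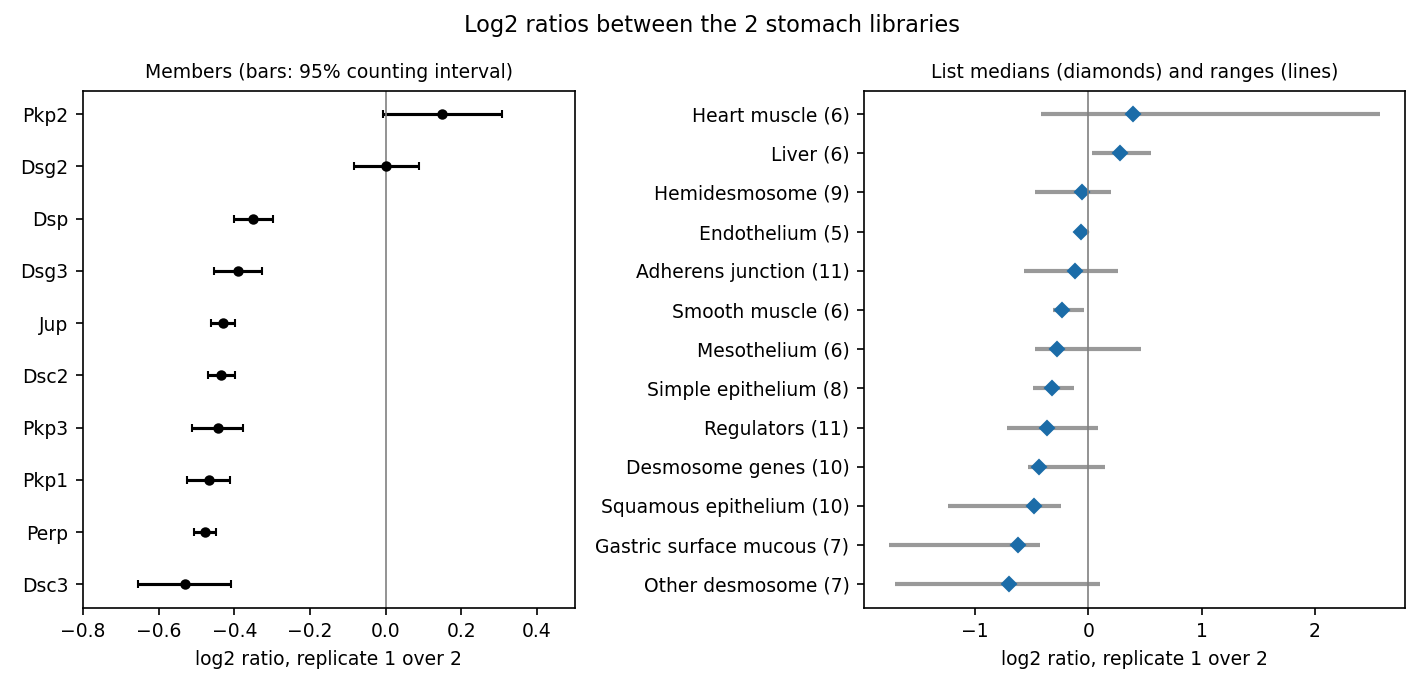
Left, log2 ratio of replicate 1 over replicate 2 for each member with its 95% counting interval; right, median (diamond) and range (line) of the ratio for the members and for 12 other gene lists, with the number of genes past the filter in brackets. Of the members, 8 lie between -0.53 and -0.35 and Dsg2 and Pkp2 at 0.00 and 0.15; the skeletal muscle list, with ratios from 2.86 to 4.85, and the epidermis, plakin and pancreas lists are not drawn.

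Grouped by their textbook tissue range, the members had similar median ratios. The 3 genes of stratified epithelium, Dsg3, Dsc3 and Pkp1, had a median ratio of -0.47, with 3 of 3 called lower. The other 7 had a median of -0.43, with 5 of 7 called lower. Perp, at -0.48 and known as a target of p63, was counted among these 7, and other groupings were not tried. Dsg2 and Pkp2 were singled out after their values were seen. Scaling by the spike-in RNAs shifted the median of all genes by -0.57. All 10 members were then below 0, with Dsg2 at -0.58, Pkp2 at -0.43 and the other 8 from -1.11 to -0.93.

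Other genes of the desmosome were mostly lower in replicate 1 too. Of 10 further genes, 7 passed the filter and 6 of these were called lower in replicate 1, with a median ratio of -0.70. Cdsn, which encodes the corneodesmosin of cornifying desmosomes, stood at 6.22 and 20.9 TPM, a ratio of -1.71. Ppl, the periplakin gene, stood at 49.8 and 82.9 TPM (-0.70), and Evpl, the envoplakin gene, at 15.5 and 19.7 (-0.31). Dsg1a and Dsg1b had ratios of -1.34 and -1.08, and Pkp4, a plakophilin relative, stood at 24.2 and 27.3 TPM (-0.19). Kazn, a gene for a periplakin-binding protein, was not called, with 10.6 and 11.2 TPM and a ratio of 0.10 (exact binomial test, adjusted p = 0.298). Dsc1, Dsg1c and Dsg4 did not pass the filter.

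Adherens junction genes, which build the other cadherin junction of epithelia, had a median ratio of -0.12. Of these 11 genes 7 were called lower and 1 higher, and 11 of 11 were detected, with a median of 66.2 ± 6.67 TPM. Ctnnb1 and Cdh1, the E-cadherin gene, were highest at 341 ± 21.9 and 199 ± 34.6 TPM, and Nectin3 lowest at 6.56 ± 1.01. Cdh1 had a ratio of -0.31 and Ctnnb1 of -0.07. Hemidesmosome genes, which attach cells to the basement membrane, were detected in 9 of 9 cases, with a median of 17.9 ± 3.62 TPM and a median ratio of -0.05. Of these 4 were called lower and 1 higher. Itga6 and Plec led at 37.6 ± 2.17 and 34.2 ± 2.49 TPM, and Lama3 was lowest at 4.51 ± 0.0919. In the plakin family 2 of 5 genes were called lower and 1 higher, with Ppl and Plec highest and Evpl lowest. The median ratio of the family was -0.0006. The genes called lower were Ppl and Evpl, already counted among the further desmosome genes, and Plec is also on the hemidesmosome list.

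Transcription and splicing factors of stratified and simple epithelium were lower in replicate 1 as well. Of the 11 genes on that list 10 were called lower, with a median ratio of -0.37. Klf5, a Klf factor of epithelial cells, stood at 61.3 ± 9.28 TPM. Trp63, the master gene of stratified epithelium, stood at 34.4 and 45.5 TPM with a ratio of -0.38. Grhl1, a grainyhead factor known to act on desmosomal cadherin genes, stood at 13.2 and 22.1 TPM with a ratio of -0.72. Ovol2 was lowest, at 2.77 ± 0.141 TPM, and was not called.

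Lists of epithelial markers moved in the same direction as the 8 genes. The squamous list, which also holds Trp63, had a median ratio of -0.48, with 9 of 10 called lower. Its summed level was 5874 TPM in replicate 1 and 9311 in replicate 2. The simple epithelium list had -0.32, with 8 of 8 called lower and sums of 3649 and 4721 TPM. The gastric surface mucous list had -0.62, with 7 of 7 called lower and sums of 960.4 and 1884 TPM. The part of these cell types in the members' ratios was not tested. Endothelial genes, from another tissue in which plakoglobin is used, had a median ratio of -0.07, with 2 of 5 called lower and 0 higher. Mesothelial genes were called lower in 4 cases and higher in 2, with sums of 1102 and 1493 TPM. Krt19, which is also on the simple epithelium list, made up most of these sums, at 927 and 1272 TPM. Smooth muscle genes had ratios from -0.31 to -0.04, with a median of -0.23. Of these, 6 of 6 were called lower, but at high counts small ratios are called too. Liver genes lay on the other side, with a median of 0.28 and 5 of 6 called higher, and so did skeletal muscle genes, with 4.47 and 10 of 10. Of the 6 acinar pancreas genes 2 were called lower and 3 higher.

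Markers of heart muscle, which uses Dsg2, Dsc2, Pkp2, Jup and Dsp, were mixed. Of 8 genes on the heart list 4 were detected in both libraries, with sums over the list of 121 and 83.7 TPM. Tnnt2 stood at 39.3 and 34.05 TPM, Myl7 at 26.3 and 36.1, Myl4 at 48.2 and 8.70, and Tnni3 at 6 and 4.26. The other 4 were below 1 TPM: Myh6 stood at 0.42 and 0.12, Ryr2 at 0.23 and 0.31 and Nppa at 0.15 in both libraries, and Nppb drew 1 and 0 expected counts. The median ratio of the 6 genes past the filter was 0.40, with 1 called lower and 3 higher. Called lower was Myl7 (-0.42), and called higher were Myl4 (2.58), Tnnt2 (0.29) and Myh6 (1.66), the last below 1 TPM. Skeletal muscle genes were higher in replicate 1 too (median ratio 4.47), and the part of skeletal muscle in these values was not tested. The part of heart muscle in the ratios of Dsg2 and Pkp2 was not tested. Epidermis markers, a check for skin, were low: 3 of 6 were detected, with sums of 12.3 and 14.5 TPM. Krt10 stood at 7.19 and 7.42 TPM, whereas Krt2, Flg and Flg2 drew at most 3.12 expected counts in either library.

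Overlapping annotated genes were few and drew few reads. Gm16090, antisense to Dsg2, drew 8.7 and 6.56 expected counts in replicates 1 and 2, against 2986 and 1709 for Dsg2. Gm36938, within Pkp1, drew 2 and 7, and Gm10129, opposite Dsp, drew 4.33 and 1.07. No source used here states whether the counting used strand.

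The promoters of Dsp and Jup, 2 of the genes lower in replicate 1, were in the RefSeq promoter table (GRCm38.p6) and are shown for the 250 bases before the start. In all, 5 motifs were searched on both strands in the 300 bases around the start. They were the TATA box, searched as TATAAA, and the AP-1 motif, searched as TGANTCA. The grainyhead motif was searched as AACNNGTT, the E-box as CANNTG, and a motif of Klf and Sp factors as CCNCNCCC. The Klf and Sp motif occurred 5 times for Dsp, with some matches overlapping each other, and 1 time for Jup, and is marked in capitals. Of the 32851 promoters in the table, 49.5% hold it. The E-box occurred 1 time for Dsp, behind the start, and not for Jup, and in 72.3% of all promoters. The letters of the TATA box, the AP-1 motif and the grainyhead motif are not in either window, and are in 13.6%, 7.81% and 4.20% of all promoters. GC content over the 300 bases was 73.0% for Dsp and 60.7% for Jup, against a median of 52.7%, and the CpG counts were 27 and 14 against a median of 7.
Dsp promoter (chr13:38151044-38151293, plus strand): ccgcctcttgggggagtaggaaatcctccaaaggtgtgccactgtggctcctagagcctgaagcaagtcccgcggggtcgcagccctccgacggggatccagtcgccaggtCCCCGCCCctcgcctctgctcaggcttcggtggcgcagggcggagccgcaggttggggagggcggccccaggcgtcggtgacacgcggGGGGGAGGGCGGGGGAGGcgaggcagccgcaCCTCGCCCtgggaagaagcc
Jup promoter (chr11:100397791-100398040, minus strand): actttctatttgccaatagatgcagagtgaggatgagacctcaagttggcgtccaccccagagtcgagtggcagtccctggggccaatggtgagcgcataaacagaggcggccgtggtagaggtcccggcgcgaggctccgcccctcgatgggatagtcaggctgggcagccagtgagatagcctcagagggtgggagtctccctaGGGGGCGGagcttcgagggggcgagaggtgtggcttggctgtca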

How the data were processed

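Total RNA sequencing libraries of 2 stomach pools (biological replicates 1 and 2, 1 group) were analysed from the deposited gene and transcript tables. The genome build was mm10 and the gene models were annotation M4, per a README text deposited with the tables. Which aligner and quantifier were used is not given in the sources used here. For each library the authors deposited expected counts (estimated reads, shared reads split), TPM and posterior mean TPM (spike-ins included), FPKM (used as an alternative only), and a credibility interval of TPM, treated as a signal, per the file headers. Symbols, positions and transcript types came from GENCODE M21, which named 42442 of 43346 genes; the member transcripts in the tables number 39, of which 34 had the same length in M21. Eppk1 was not matched. Of the library totals, spike-ins took 3.08% and 2.05% of counts and stayed out, as did features with numeric identifiers (74.99 and 27.0 counts).

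Expected counts were rounded to whole numbers. The filter was filterByExpr with 1 group and the scaling TMM, both from edgeR 4.0.16 under R 4.3.3, with factors of 1.01 and 0.992. Ratios used a prior count of 2; their 95% Wilson intervals and the exact binomial test (scipy 1.17.1, adjusted p under 0.05) cover counting error only. Size factors of DESeq2 1.42.0 served as an alternative. A quasi-likelihood test needs groups to compare and was not run. The ratio and the exact binomial test were tried on simulated counts that varied less than these libraries. The other steps were not tried on simulated data. Levels are mean ± SD over 2 libraries; differences used log2(TPM + 0.1). A count of 0 allows up to 3 counts. Named were all members, every gene of the further desmosome list and at most the 2 highest and the lowest of other lists. Trp63, Grhl1 and the further heart and skin genes were named beyond this after their values were seen. Members and lists were chosen with earlier results of these data known. A gene that this rule names is not reported here. Protein identities between members were planned and are not reported here. Other tools were Python 3.11.15, numpy 2.4.6, pandas 2.3.3 and matplotlib 3.10.9.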

Additional observations from a re-analysis of the deposited data

How the results depend on the processing

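No paired analysis was possible because both libraries belong to 1 group and each replicate number occurs once. The 8 genes lower in replicate 1 stayed below 0 under each of 7 alternatives for the ratio. Dsg2, which has no clear direction, turned just below 0 with unscaled TPM (-0.04), posterior mean TPM (-0.02) and TMM factors from protein-coding genes without the skeletal muscle list (-0.00). Spike-in scaling moved the members' median ratio to -1.01, the genes beyond 2-fold to 1427 and the genes called by the binomial test to 14529, by its construction as a shift of all genes. Without the low-count filter 2724 genes lay beyond 2-fold, since genes near 0 enter. The difference of Dsc3 minus Dsc2 was -3.69 with a pseudocount of 1.

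Expected counts, which are not corrected for length, gave shares of 34.5% for Dsg2, 61.6% for Dsg3, 92.3% for Dsc2, 7.68% for Dsc3, 53.1% for Pkp1 and 39.4% for Pkp3, so that Pkp1 then led the plakophilins. Protein-coding transcripts alone, chosen after the data were seen, gave 42.2% for Pkp1 and 49.1% for Pkp3. The leading transcript's share became 97.1% for Dsg2, 92.2% for Jup and 43.8% for Pkp3 with posterior mean TPM, and 99.4%, 97.9%, 70.8% and, for Dsp, 69.4% with expected counts. All 10 members stayed detected at 0.5 and 5 TPM and in either library alone. Depth limits Dsc1, Dsg1c and Dsg4, and 2 pools limit everything else.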
